A study of Homo sapiens with 3 samples.

Results

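The genes described are TGFB1, TGFB2, TGFB3, LTBP1, TGFBR1, TGFBR2, TGFBR3, SMAD3, SMAD7 and TGFBI, which were chosen by their symbols as the ligands, receptors, SMAD proteins and closely tied genes of the TGF-beta pathway. The choice was made with earlier results of these data known. They were measured by 11 probes, 2 for LTBP1 and 1 for each other gene. The arrays hold 58201 probes, of which 34892 were named, for 25006 genes. Total RNA of the clones U87WT 5 and U87Mut 5 was hybridized together on 3 arrays, with U87WT labeled with Cy5 and U87Mut with Cy3. Both clones were derived from U-87MG (U87), a human glioblastoma line, by stable transfection and selection with G418, and each is 1 clone, so a difference between them may also come from the clones themselves. U87WT expresses GFP-IGF1R, a receptor for insulin-like growth factor that reaches the nucleus, and U87Mut expresses GFP-IGF1R1025x-1100x-1120x, which stays out of it; both still have the receptor of the parental line. The arrays held cells kept for 24 h in medium free of FBS, cells given IGF1 (50 nM) for 24 h, and cells given IGF1 (50 nM) after preincubation with OSI906 (0.5 μM), which inhibits the IGF1R kinase and that of the insulin receptor; the label of the medium gives a much higher dose of OSI906 than the sample's title and protocol, and the dose of these is used. For the times, the labels and methods give 24 h, while a supplement of the study gives a shorter time with IGF1. No condition was repeated, no dye was swapped and no parental U87 sample was analysed here, so dye and clone cannot be told apart, and a value on 1 array carries no error and no p.

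TGF-beta ligands are secreted bound to a propeptide and, through it, to a latent TGF-beta binding protein such as LTBP1, and are released from this store in the matrix. The active ligand brings the TGFBR2 and TGFBR1 kinases together, TGFBR3 (betaglycan) presents ligand to them, and the activated receptor phosphorylates SMAD2 and SMAD3, which enter the nucleus with SMAD4. SMAD7 is induced by the pathway and blocks the receptor, and TGFBI is a secreted matrix protein named for its induction by TGF-beta. In glioblastoma the pathway is known for its part in invasion, mesenchymal traits and immune suppression.

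Of the 3 genes with the highest mean ratio of the clones (TGFBI, TGFB3 and TGFB2, below), the promoter sequences of TGFBI and TGFB2, which each have 1 RefSeq promoter window, are shown so that a reader can see what precedes them. These are the 250 bases before the start of transcription from RefSeq (GRCh38.p14), 5′ to 3′ on the plus strand, at chr5:136028738-136028987 for TGFBI and chr1:218345086-218345335 for TGFB2. Capitals mark the letters CAGAC (a SMAD motif), TGANTCA (an AP-1 motif) or CACGTG (an E-box), searched on both strands; in TGFB2 a CAGAC and the CACGTG overlap.
TGFBI: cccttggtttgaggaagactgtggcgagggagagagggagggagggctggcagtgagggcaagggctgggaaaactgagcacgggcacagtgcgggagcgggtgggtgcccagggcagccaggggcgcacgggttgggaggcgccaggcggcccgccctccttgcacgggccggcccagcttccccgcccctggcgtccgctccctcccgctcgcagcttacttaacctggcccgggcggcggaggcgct
TGFB2: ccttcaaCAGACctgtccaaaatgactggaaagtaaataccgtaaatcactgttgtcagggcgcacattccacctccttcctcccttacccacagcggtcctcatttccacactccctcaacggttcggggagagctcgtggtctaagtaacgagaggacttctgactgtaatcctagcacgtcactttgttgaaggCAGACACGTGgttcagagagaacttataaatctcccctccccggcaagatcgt
TGFBI holds none of these motifs in its window of 300 bases, which also takes in the first 50 bases of the transcript. Over 27 such windows of the 10 genes, 14 held CAGAC, 2 held TGANTCA and 3 held CACGTG, against 45.3%, 7.71% and 7.26% of all 35116 windows. A match is a run of letters and was not tested as a binding site. RefSeq places the gene of TGFBI at chr5:136028988-136063818, TGFB2 at chr1:218345336-218444619, TGFB3 at chr14:75958097-75983011, TGFBR2 at chr3:30606356-30694142 and SMAD3 at chr15:67065602-67195169 of the same build.

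All 11 probes were well above background, as the scanner software marks it, in all 6 channels, each had 1 spot on an array, and none was saturated or marked as an outlier. A ratio here is log2(U87WT/U87Mut), and a level is the normalized log2 intensity of 1 channel. Of all probes, 47.56% were well above background in all 6 channels. The arrays held 384, 572 and 5 spots marked as not uniform, in the order FBS-free, IGF1 and IGF1 with OSI906, and their highest local Cy5 background was 373, 66985 and 45. The background was therefore fitted without the marked spots. On the IGF1 array the fitted SD of the Cy5 background was 1.32 without them and 701 with all spots. The spot of SMAD3 on the IGF1 array was the only member spot that carried such a mark. Among probes well above background, a ratio varied between the FBS-free and OSI906 arrays with an SD of 0.144, a value that holds both noise and the response to treatment, and the 277 probes with 5 or more spots had a median SD between spots of 0.0455 to 0.0510 on an array. As the RNA came from whole cultures, fewer cells with a transcript and less of it per cell cannot be told apart.

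U87WT had higher levels of TGFBI, TGFB3 and TGFB2 than U87Mut on all 3 arrays, with mean ratios of 0.70, 0.41 and 0.31. By limma over the 3 arrays with Benjamini-Hochberg adjustment over all probes, none of the 11 probes passed 5%, where 8.43% of all probes and 17.2% of the probes well above background did (4.28% and 8.61% higher in U87WT, 4.15% and 8.61% lower). At an unadjusted p under 0.05 there were 5 genes (TGFB1, TGFB2, TGFB3, TGFBR3 and TGFBI), and 21.1% of all probes and 39.4% of those well above background. The arrays of this test are different conditions, so any response to treatment adds to its error, and a constant dye bias of a probe adds to its effect. A ratio past 0.5 was counted on each array. On the FBS-free array TGFB2 and TGFBI lay above 0.5 and no member lay below -0.5, where 4.78% and 4.69% of the probes well above background did. On the IGF1 array TGFB3 and TGFBR2 lay above and none below, where 5.41% and 3.7% did. With OSI906, TGFBI lay above and none below, where 4.59% and 4.19% did.

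**Figure D1:**
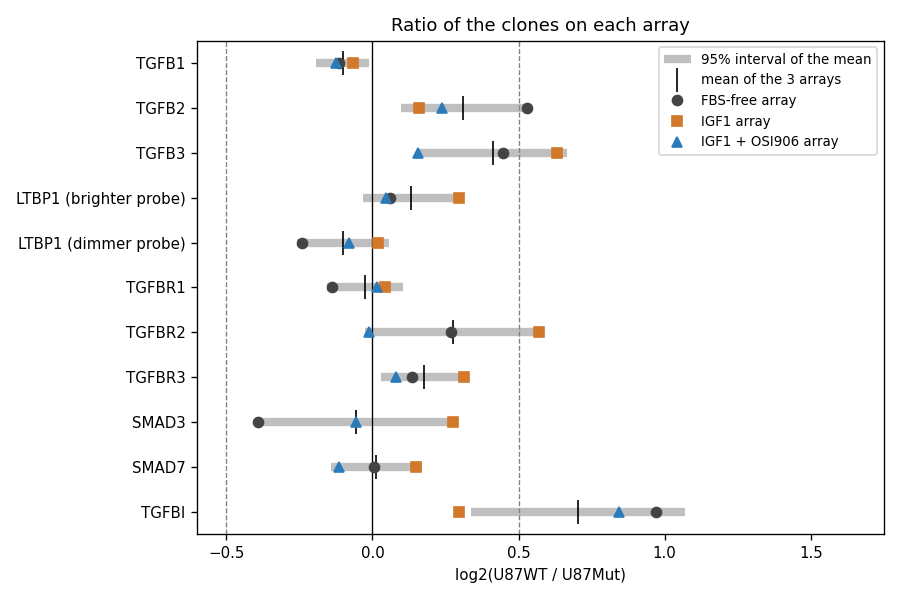
Log2 ratio of U87WT over U87Mut for each probe on the FBS-free (circle), IGF1 (square) and IGF1 + OSI906 (triangle) arrays, with the mean (tick) and its 95% interval from limma (grey bar); dashed lines mark 0.5 and -0.5. The ratios of TGFBI, TGFB3, TGFB2, TGFBR3 and the brighter LTBP1 probe lie above 0 on all 3 arrays. Those of TGFB1 lie just below 0, and SMAD3 spans from -0.39 to 0.28.

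TGFBI, the matrix protein, had the highest mean ratio of these genes. Its level in U87WT was 16.69 in FBS-free medium, 16.12 with IGF1 and 16.85 with IGF1 and OSI906. In U87Mut the levels were 15.72, 15.82 and 16.01. The U87WT levels are above all U87Mut levels, with the IGF1 array closest to them. The ratios were 0.97, 0.30 and 0.85, or 1.96-fold, 1.23-fold and 1.80-fold. The mean was 0.70 ± 0.14 (SE, n = 3 arrays, limma, adjusted p = 0.0540), with a 95% interval of 0.34 to 1.07. Without the IGF1 array the mean was 0.91 with an adjusted p of 0.00349 by limma, without the FBS-free array 0.57 (0.196) and without the OSI906 array 0.63 (0.271). TGFBI passed the test under 7 of 12 alternatives, with limma's adjusted p between 0.00349 and 0.349, and the mean ratio lay between 0.41 and 1.17.

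The IGF1 array decides how TGFBI reads, and its value there depends on the processing. Before any normalization, signal minus local background gave log2 ratios of 1.22, 1.28 and 1.39 for the TGFBI spot, from Cy5 signals of 125981, 96957 and 123503 and Cy3 signals of 54148.5, 39851 and 47115. These raw ratios are close to each other on the 3 arrays. The 216 probes with a mean brightness above 15, the range in which TGFBI lies, had median raw ratios of 0.51, 1.20 and 0.79. Loess reduced such a trend with brightness on each array but did not remove it. After it the medians of the 216 probes were 0.30, 0.30 and 0.36, and 16, 109 and 22 of them lay above TGFBI. Over the probes well above background the medians were -0.011, 0.004 and -0.004. The mean ratio of TGFBI and its p were not taken relative to the 216 probes. On the IGF1 array TGFBI was therefore in the middle of the brightest probes, and on the other arrays near their top. The IGF1 ratio of TGFBI was 1.00 with the background fitted on all spots, 1.16 in the deposited table, 1.15 with the median in place of loess and 0.07 with the signals processed by the scanner software. VIM, the intermediate filament vimentin and another very bright probe, had ratios of 1.15, 0.29 and 0.77. It is a single example, and the median of the 216 probes was 0.30 on both the FBS-free and the IGF1 array. The cause of the lower IGF1 ratios of TGFBI and VIM was not tested.

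**Figure D2:**
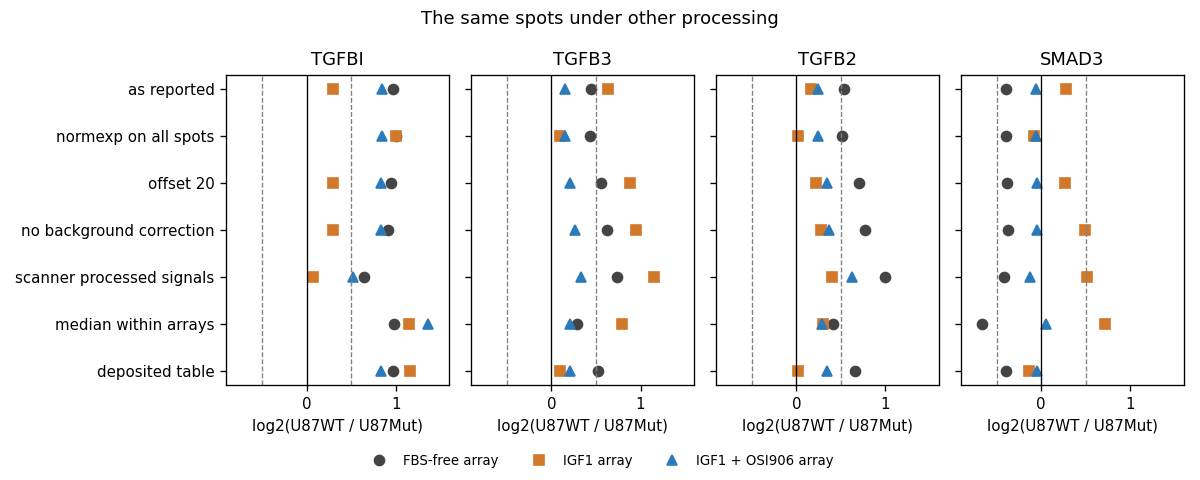
Log2 ratio of U87WT over U87Mut (x axis) on the FBS-free, IGF1 and IGF1 + OSI906 arrays under the processing used here and 6 alternatives (y axis), for TGFBI, TGFB3, TGFB2 and SMAD3. In TGFBI, TGFB3 and SMAD3 the squares of the IGF1 array move most (from 0.07 to 1.16, 0.10 to 1.15 and -0.14 to 0.72), and in TGFB2 the circles of the FBS-free array (0.41 to 1.00).

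Of the ligands, TGFB2 and TGFB3 had higher levels in U87WT and TGFB1 nearly equal ones. TGFB1, the ligand most studied in tumors, had levels of 9.21, 9.04 and 9.17 in U87WT and 9.32, 9.10 and 9.29 in U87Mut. Both clones had their lowest value on the IGF1 array. The ratios were -0.12, -0.07 and -0.12, with a mean of -0.10 ± 0.03 (SE, n = 3 arrays, limma, adjusted p = 0.195). The 95% interval was -0.19 to -0.01, which leaves out a mean ratio as large as 0.5 in either direction under these settings. That ratio holds any dye bias of the probe along with the difference of the clones. On the IGF1 array alone its ratio lay between -0.39 and 0.29 over the settings.

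TGFB2, the ligand first described from glioblastoma as an immune suppressor, had levels of 7.07, 6.82 and 6.80 in U87WT. In U87Mut the levels were 6.54, 6.66 and 6.56. All values of U87WT lie above all values of U87Mut, and the FBS-free array holds the widest gap. The ratios were 0.53, 0.16 and 0.24, with a mean of 0.31 ± 0.08 (SE, n = 3 arrays, limma, adjusted p = 0.108; 95% interval 0.10 to 0.52). With an offset of 20 the mean was 0.42 and limma's adjusted p 0.0359, the only 1 of 12 alternatives under which it passed. Without the FBS-free array the mean was 0.20 (limma, adjusted p = 0.192). The signals of TGFB2 were low, 56 to 103 over a local background of 19 to 22. Before any normalization, signal minus local background gave log2 ratios of 1.00, 0.84 and 0.68. The median raw ratio of all spots well above background was -0.05, 0.54 and 0.13 on the same arrays, so these raw ratios hold an offset of each array.

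TGFB3, the third ligand, had levels of 7.36, 7.19 and 6.91 in U87WT and 6.91, 6.55 and 6.76 in U87Mut. U87WT with OSI906 and U87Mut in FBS-free medium are at the same level, so the clones' ranges meet. The ratios were 0.45, 0.63 and 0.16, with a mean of 0.41 ± 0.10 (SE, n = 3 arrays, limma, adjusted p = 0.0837; 95% interval 0.16 to 0.67). It passed the test under 3 of 12 alternatives (an offset of 20, no background correction, and only probes well above background). Its signals were low, 48.5 to 136 over a local background of 20 to 22, and its IGF1 ratio was 0.10 with the background fitted on all spots and 1.15 with the processed signals.

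LTBP1, which holds latent ligand in the matrix, was measured by 2 probes that did not give the same sign. The brighter probe had levels of 9.39 to 9.55 in U87WT and 9.26 to 9.41 in U87Mut. Its ratios were 0.06, 0.30 and 0.05 (mean 0.13 ± 0.06 SE, n = 3 arrays, limma, adjusted p = 0.331). The dimmer probe had ratios of -0.24, 0.02 and -0.08 (mean -0.10 ± 0.06 SE, n = 3 arrays, limma, adjusted p = 0.439). Without the IGF1 array the means were 0.05 and -0.16, and without the FBS-free array that of the dimmer probe was -0.03. On both probes the IGF1 array had the highest ratio, and both 95% intervals, -0.03 to 0.30 and -0.26 to 0.06, take in 0. The files give both probes the same transcript and no probe sequence, so the part of the gene they cover is not known here.

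Of the receptors, TGFBR2 had the widest spread over the 6 channels. TGFBR2, the kinase that binds ligand, had levels of 11.95, 11.77 and 11.28 in U87WT. In U87Mut the levels were 11.68, 11.20 and 11.30. U87WT was higher in FBS-free medium and with IGF1 and level with U87Mut under OSI906. The ratios were 0.27, 0.57 and -0.01, with a mean of 0.28 ± 0.11 (SE, n = 3 arrays, limma, adjusted p = 0.276; 95% interval -0.03 to 0.58). Without the IGF1 array the mean was 0.13, and without the OSI906 array 0.42 (limma, adjusted p = 0.472 and 0.174). The IGF1 ratio was 0.35 in the deposited table and 1.09 with the median in place of loess, so it was positive throughout, and past 0.5 only under some settings.

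TGFBR1, the kinase that TGFBR2 activates, had levels of 7.53 to 7.76 in U87WT and 7.67 to 7.72 in U87Mut. Its ratios were -0.14, 0.04 and 0.02 (mean -0.03 ± 0.05 SE, n = 3 arrays, limma, adjusted p = 0.837; 95% interval -0.16 to 0.11). TGFBR3, the co-receptor betaglycan, had levels of 6.54, 6.65 and 6.37 in U87WT and 6.40, 6.34 and 6.29 in U87Mut. The U87WT level with OSI906 falls within the U87Mut values. Its ratios were 0.14, 0.31 and 0.08 (mean 0.18 ± 0.06 SE, n = 3 arrays, limma, adjusted p = 0.168; 95% interval 0.03 to 0.33). Without the IGF1 array the mean was 0.11. Its signals were low, 43 to 70.5 over a local background of 19 to 24.

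Of the SMAD genes, SMAD3 differed most between arrays and SMAD7 hardly at all. SMAD3, which carries the signal to the nucleus, had levels of 10.26, 10.56 and 10.91 in U87WT. In U87Mut the levels were 10.65, 10.29 and 10.96. Both clones had their highest level with OSI906, and the clone with the higher level on the FBS-free array was the lower 1 on the IGF1 array. The ratios were -0.39, 0.28 and -0.06 (mean -0.06 ± 0.13 SE, n = 3 arrays, limma, adjusted p = 0.861; 95% interval -0.40 to 0.29). In the order of the arrays the SMAD3 spot had a local Cy5 background of 24, 321 and 21, while the other 10 spots had 19 to 24 in both channels. Its IGF1 ratio was -0.09 with the background fitted on all spots and -0.14 in the deposited table. It was 0.27 with an offset of 20, 0.49 without background correction, 0.52 with the processed signals and 0.72 with the median in place of loess. Its sign on that array is therefore not settled. Without that spot, the mean of the other arrays was -0.22 (limma, adjusted p = 0.324).

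SMAD7, the inhibitor that the pathway itself induces, had levels of 7.24, 7.26 and 7.16 in U87WT and 7.24, 7.11 and 7.27 in U87Mut. The values of the clones are intermixed. Its ratios were 0.01, 0.15 and -0.11 (mean 0.01 ± 0.06 SE, n = 3 arrays, limma, adjusted p = 0.933; 95% interval -0.14 to 0.17).

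**Figure D3:**
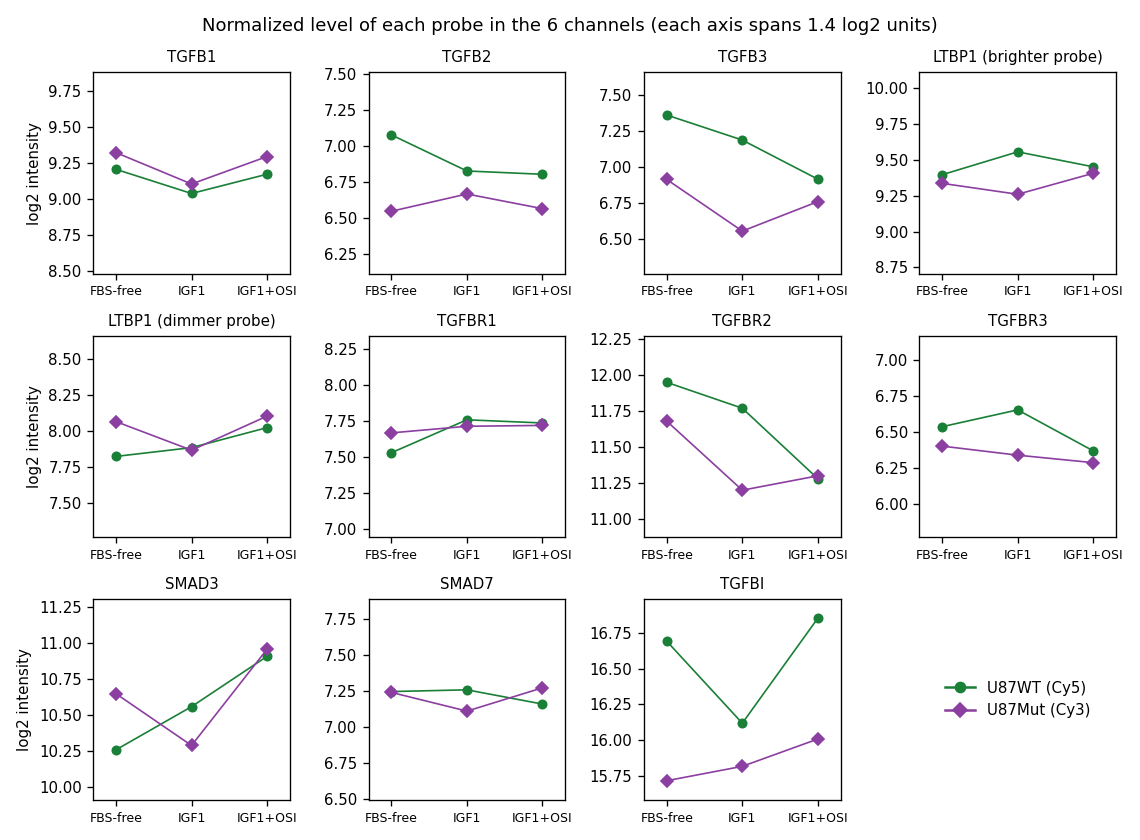
Normalized log2 intensity of each probe (y axis, spanning 1.4 log2 units in every panel) in U87WT (circles, Cy5) and U87Mut (diamonds, Cy3) on the FBS-free, IGF1 and IGF1 + OSI906 arrays. The U87WT points of TGFBI and TGFB2 lie above all U87Mut points of the same probe, and those of SMAD7 and TGFBR1 overlap with them.

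The response of each clone was read as the difference of its level between arrays, within 1 dye. From FBS-free medium to IGF1, only TGFBI in U87WT passed 0.5 in size (-0.57), where 4.37% of the probes well above background did, and no member in U87Mut, where 2.1% did. From IGF1 to IGF1 with OSI906, TGFBI passed it in U87WT (0.74), where 6.91% of the probes did, and SMAD3 in U87Mut (0.68), where 2.43% did. In U87Mut the same differences of TGFBI were 0.10 and 0.19. The U87WT differences of TGFBI were -0.24 and 0.39 with the background fitted on all spots, both under 0.5. With that fit the OSI906 difference of SMAD3 was 0.499 in U87Mut, just under 0.5, and 0.53 in U87WT. The 2 steps share the IGF1 array, so a value that is off on that array appears in both with opposite signs.

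TGFBR2 came near the limit, with -0.18 in U87WT and -0.48 in U87Mut from FBS-free medium to IGF1, and -0.48 and 0.10 from IGF1 to OSI906. SMAD3 had 0.31 in U87WT and -0.36 in U87Mut with IGF1, and 0.35 and 0.68 with OSI906. TGFB3 had -0.17 and -0.36 with IGF1, and -0.27 and 0.21 with OSI906. By the wider of the 2 steps, the clones diverged by 0.67 in TGFBI and SMAD3, by 0.58 in TGFBR2 and by 0.48 in TGFB3, and by less in the other genes. TGFB1 moved alike in both clones, with -0.17 and -0.22 with IGF1 and 0.13 and 0.19 with OSI906. All differences of TGFBR1 and SMAD7 were between -0.13 and 0.23. With 1 array for each condition none of these differences can be tested.

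**Figure D4:**
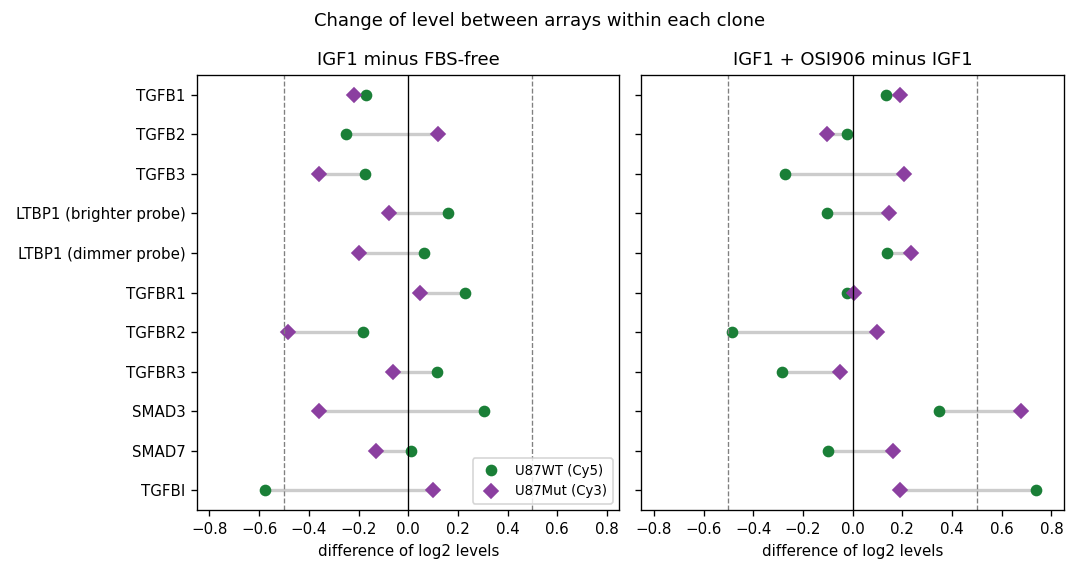
Difference of log2 level from FBS-free medium to IGF1 (left) and from IGF1 to IGF1 + OSI906 (right) in U87WT (circles) and U87Mut (diamonds), for each probe; dashed lines mark 0.5 and -0.5. TGFBI in U87WT lies at -0.57 and 0.74, and SMAD3 in U87Mut reaches 0.68.

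The other genes of the pathway were taken from 8 lists of 78 genes, all measured and 64 of them well above background in all 6 channels. By limma 13 passed the test as higher in U87WT and 7 as lower, and 58 did not pass, where 4.28% and 4.15% of all probes, or 8.61% in each direction of those well above background, did. The 78 genes had a median mean ratio of 0.02 against -0.001 over all probes. Without the FBS-free array the counts were 3 higher and 4 lower, without the OSI906 array 0 of either, and with the background fitted on all spots 0 and 2. The lists follow the known roles of the genes, and no list was tested against the rest of the array. They were chosen with earlier results of these data known, so their counts beside these shares are a description only.

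Of the genes that store and release latent ligand, 2 of 10 were higher and 1 was lower. ITGAV, the integrin alpha V chain that pulls on the latent complex, was higher (mean ratio 0.54, limma, adjusted p = 0.0144). LRRC32, which holds latent ligand on the cell surface, was also higher (0.34, adjusted p = 0.0231). LTBP3, a relative of LTBP1, was lower (-0.40, adjusted p = 0.0161). Of the co-receptors and related receptors, 1 of 9 was higher, ACVRL1, a type I receptor best known from endothelium (0.26, limma, adjusted p = 0.0370). Of the other SMADs, SMAD1, which carries BMP signals, was higher (0.38, limma, adjusted p = 0.0161) and the other 5 did not pass; SMAD5 had ratios of -0.54, 0.11 and -0.22. SMAD2 and SMAD4, the partners of SMAD3, had mean ratios of -0.02 and 0.15.

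Ligands and their inhibitors held the widest differences. GDF15, a stress-induced cytokine of the family, was lower in U87WT, with ratios of -1.56, -1.16 and -1.42 (mean -1.38 ± 0.08 SE, n = 3 arrays, limma, adjusted p = 0.00449). BMP7 was higher by its brightest probe (0.40, limma, adjusted p = 0.0294), while its other 2 probes were well above background in 0 channels. DCN, the proteoglycan decorin, which binds TGF-beta, was higher in U87WT with ratios of 2.63, 1.94 and 3.22 (mean 2.59 ± 0.25 SE, n = 3 arrays, limma, adjusted p = 0.00971). Its second, dimmer probe had ratios of 0.87, 0.28 and 1.46 and did not pass (limma, adjusted p = 0.107). FST, the activin binding protein follistatin, was higher (0.80, limma, adjusted p = 0.0148), and GREM1, the BMP antagonist gremlin, was lower on both probes (-0.81 by the brighter one, limma, adjusted p = 0.0102). Among these inhibitors 2 of 7 were higher and 1 was lower, and among the ligands 1 of 8 was higher and 1 lower.

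Of 14 cofactors, repressors and ubiquitin ligases, 2 were higher and 1 was lower. PMEPA1, a TGF-beta-induced inhibitor of the pathway, was higher on both probes (0.49 and 0.25, limma, adjusted p = 0.0222 and 0.0204). CREBBP, a histone acetyltransferase that SMAD complexes use, was higher (0.40, limma, adjusted p = 0.0351). TGIF1, a repressor, was called lower by its brighter probe (-0.46, limma, adjusted p = 0.00740) and higher by the other (0.37, adjusted p = 0.0437), so its direction is not settled. SKI, a SMAD repressor, did not pass, with ratios of 0.12, -0.60 and 0.10.

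Of 19 genes that TGF-beta is known to induce, 4 were higher and 2 were lower in U87WT, so they did not move one way. The higher genes were COL1A1 (mean ratio 0.70, limma, adjusted p = 0.0273) and COL1A2 (0.59, adjusted p = 0.0132), the chains of type I collagen, ACTA2, smooth muscle actin (0.61, adjusted p = 0.00995), and SNAI2, a transcription factor of the mesenchymal state (0.59, adjusted p = 0.0104). The lower genes were TNC, the matrix protein tenascin C (-0.90, limma, adjusted p = 0.00490), and ANGPTL4, a secreted inhibitor of lipoprotein lipase (-0.61, adjusted p = 0.00839). COL1A2 and SNAI2 are named in addition to the naming rule, to complete the list of calls. CCN2, a matricellular protein picked after its values were seen, had a mean ratio of -0.02. Of 5 genes induced by BMP, HEY1 was lower (-0.48, limma, adjusted p = 0.00722). ID1 had ratios of -0.44, -1.66 and -0.40 and ID3 of -0.12, -0.55 and -0.32, which did not pass.

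**Figure D5:**
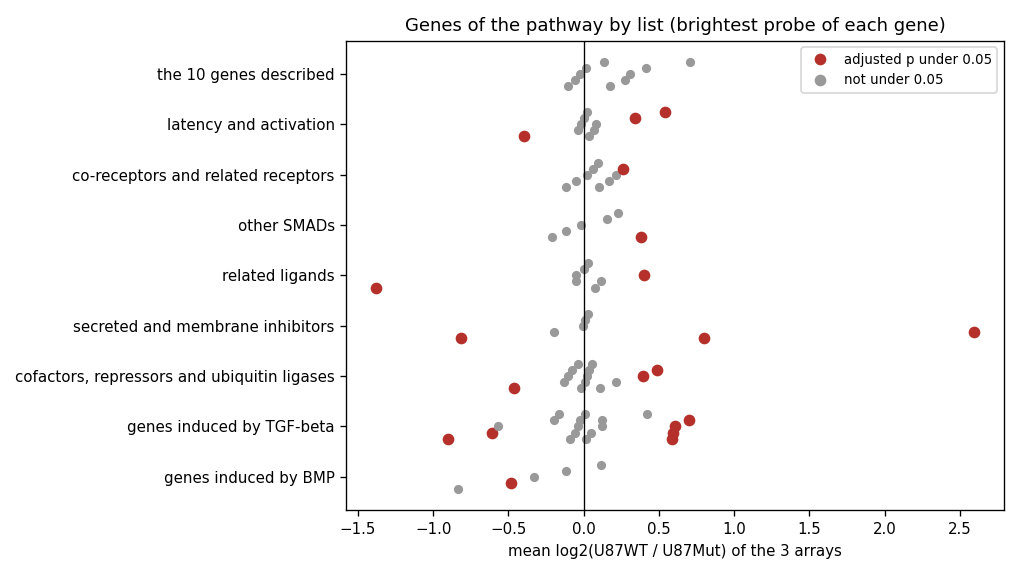
Mean log2 ratio of U87WT over U87Mut (x axis) of each gene by its brightest probe, for the 10 genes described and the 8 lists of the pathway (y axis; the vertical offset within a list has no meaning). Red points passed limma at an adjusted p under 0.05, 13 to the right and 7 to the left of 0, and none of the 10 genes described did; DCN is the point at 2.59 and GDF15 the point at -1.38.

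The label of the cells was set against known markers. VIM, CD44, NES and CHI3L1 were well above background in all 6 channels, as were OLIG2 and the brightest probe each of PTPRC, EPCAM and RBFOX3, markers of leukocytes, epithelium and neurons; GFAP and SOX2, markers of astrocytes and neural stem cells, were so in 0 channels, S100B in 2 and PECAM1 in at most 1. The levels of OLIG2 were 6.045 to 6.143 and those of the brightest PTPRC probe 6.087 to 6.352. These are little above the 5.797 to 5.985 of the brightest GFAP and SOX2 probes. EPCAM, with levels of 6.547 to 7.15, and the brightest RBFOX3 probe, with 8.504 to 9.796, lay further above them. Some other PTPRC probes and the other RBFOX3 probe were well above background in 0 channels. For OLIG2 and PTPRC the mark alone therefore does not show expression. Whether the cells express EPCAM or RBFOX3 was not tested. Of these 12 markers none passed the test of the clones. EPCAM came closest (ratios 0.36, 0.53 and 0.20, limma, adjusted p = 0.0502). IGF1R, which both clones carry as a transgene, had ratios of 0.07, 0.23 and 0.09, and whether its probe lies in the transgene is not known. JUN, which encodes an AP-1 protein, had 0.07, -0.34 and 0.22.

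The genes most like TGFBI were found by the Euclidean distance between the 6 channel levels, each centered on its own mean, over 20687 other named probes well above background. The closest were DEPTOR, an inhibitor of mTOR kinase (0.09), KIRREL1, an adhesion protein of the immunoglobulin family (0.21), and ZHX3, a zinc finger and homeobox protein (0.21), where the median distance was 1.09. DEPTOR had levels of 7.24, 6.67 and 7.45 in U87WT and 6.37, 6.40 and 6.64 in U87Mut. Its lowest U87WT level was on the same IGF1 array, which follows from its choice by likeness to TGFBI. The distance rests on 6 channels of 3 arrays and is a description.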

How the data were processed

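The authors deposited, per the file headers, spot intensities from Agilent Feature Extraction 12.0.3.1 (median signal and local background of each channel, not normalized, with marks for spots that are not uniform, outliers, saturated or well above background), processed intensities, and a log10 ratio. They also deposited 1 table of log2 ratios, made, per their methods, with limma (a background correction, then normalization of each array and across arrays, of kinds not named). Its scale and direction were set against the scanner files: its FBS-free and OSI906 columns lay within 0.01 of a recomputation (normexp on all spots, offset 20) for 99.97% of probes and its IGF1 column for 90.3% (r = 0.95), with column medians of -0.007, -0.007 and -0.003. Here, in R 4.3.3 with limma 3.58.1, normexp (offset 50) was fitted without the spots marked not uniform, followed by loess, Aquantile and the mean over spots; 2075 control spots of 62976 and 95, 117 and 95 outlier spots were left out. Genes were named by RefSeq transcript (GRCh38.p14) for 34892 probes. The clones were compared by lmFit and eBayes (intercept only, 3 arrays, Benjamini-Hochberg at 5%), and values on 1 array by a limit of 0.5. A gene with several probes is given by its brightest one unless stated. From each list up to 4 genes were named, by size of the mean ratio among those past the test or else past 0.5 on any array; the 3 genes most like the member of widest range, IGF1R and JUN were named too. Apart from the list genes that this rule did not name, 1 list gene is counted but not reported by name here. The members and lists were chosen with earlier results of these data known. Only the limma test and the background fit were tried on simulated data. Alternatives were other background fits, offsets, normalizations and filters, the deposited table, leaving out each array and, added after seeing the data, leaving the marked spots out of the values. The number of arrays limits the precision.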

Additional observations from a re-analysis of the deposited data

Results flagged for a closer look

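In 2 genes the clones' levels moved in opposite directions between arrays, each by more than 0.144, the SD of a ratio between the FBS-free and OSI906 arrays. Between the FBS-free and IGF1 arrays this SD was 0.180. Both are SDs of a ratio and not of a difference of levels, so 0.144 served only as a limit for flagging. From FBS-free medium to IGF1, SMAD3 had 0.31 in U87WT and -0.36 in U87Mut, a difference of 0.67. It rests on the spot with a local Cy5 background of 321. With the background fitted on all spots the values were 0.11 and -0.20, a difference of 0.31, and U87WT no longer passed 0.144. From IGF1 to IGF1 with OSI906, TGFB3 had -0.27 in U87WT and 0.21 in U87Mut, a difference of -0.48. With the background fitted on all spots the values were 0.21 and 0.15, so both were then above 0. That fit had a Cy5 background SD of 701 on the IGF1 array, against 1.32 without the marked spots. Neither difference was tested, since each condition has 1 array.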

How the results depend on the processing

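Over all alternatives, 110 mean ratios kept their direction and side, 11 newly passed the test and 11 turned sign. Of 60 recomputed differences between arrays, 25 moved by more than 0.144 and 18 crossed the limit of 0.5. In place of 0 members, limma called 1 with the background fitted on all spots, 1 in the deposited table and 1 with the marked spots left out (TGFBI), 2 without background correction and 2 among only probes well above background (TGFBI and TGFB3), and 3 with an offset of 20 (TGFBI, TGFB3 and TGFB2); leaving out each array gave 0 to 1. In place of 13 higher and 7 lower list genes there were 0 and 2 with all spots, 1 and 3 in the deposited table, and 0 and 0 with the processed signals and with the median in place of loess; leaving out each array gave 0 to 14 higher and 0 to 10 lower. Of all probes 4907 were called, against 675, 785, 0 and 0 under these settings, and 232 to 6033 when each array was left out. The counts were 5772 with an offset of 20, 4534 without background correction and 5107 with the marked spots left out. Among only probes well above background, 5397 of 27680 were called. With 0 called by limma, nothing can be read from the processed signals or the median about single genes. The cause was not tested.

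A limit of 0.5 SD of each array gave 9, 8 and 5 member probes past it on the FBS-free, IGF1 and OSI906 arrays. The shares of all probes under this limit and under the settings below are not given here. These counts are therefore not a result about the members. The IGF1 array had 1 with all spots, 4 with the processed signals, 5 with the median and 1 in the deposited table, and the OSI906 array 2 with the processed signals. For the responses to IGF1, U87WT had 3 with the processed signals, and U87Mut had 1 with an offset of 20, 3 with the processed signals and 4 with the median; for OSI906, U87WT had 2 with the processed signals and 2 with the median. Centering by the median left the probes well above background at -0.13, 0.20 and 0.05, and the values under it were not taken relative to these.

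The sign of the mean ratio turned for 4 probes, none of them called. The brighter probe of LTBP1 had -0.0113 with all spots and -0.0254 in the deposited table. TGFBR1 had 0.00218 with the median and -0.0602 to 0.0310 when each array was left out (above 0 without the FBS-free array). SMAD3 had 0.0241 without background correction, 0.0375 with the median and -0.224 to 0.110 when each array was left out (above 0 without the FBS-free array). SMAD7 had -0.0374 with all spots, -0.0658 with the processed signals, -0.0531 in the deposited table and -0.0539 to 0.0767 when each array was left out (below 0 without the IGF1 array).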
